A study of Rattus norvegicus with 4 samples.

Results

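The 53 genes described here encode the secreted factors of the TGF-beta, BMP and activin family and the proteins that receive, relay or restrain them. They were taken as every gene probe on the arrays whose current rat symbol begins with or equals a family name (Bmp, Bmpr, Bmper, Tgfb, Acvr, Inha, Inhba, Inhbb, Smad, Gdf, Fst, Nog, Grem, Chrd or Ltbp, with a number after Bmp, Smad and Gdf). That gave 84 of the 33849 gene probes and 53 of the 12323 genes with a name. The symbols alone chose them, and no measured value entered the rule.

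Expression was measured in the crista ampullaris, the sensory patch of each semicircular canal in the inner ear, on single-colour whole-genome oligonucleotide arrays. Both groups were untreated rat tissue as far as the labels say, which give no strain, age, sex or genotype: 2 arrays of the supporting cell layer (SC layer), meaning cell bodies on the basal lamina taken in a second laser pass, and 2 arrays of the hair cell layer (HC layer) above it, taken first. The HC layer was cut by morphology and, by the study's own design text, still holds supporting cell cytoplasm between the hair cells and the calyx nerve endings around them. Whether both arrays of 1 layer stem from different animals or captures is not stated in the labels, so each p-value measures only the spread between these arrays, and their number limits the precision.

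Ligands of the family are secreted dimers that bring a type II and a type I receptor together on the cell surface; the type II receptor phosphorylates the type I receptor, which then phosphorylates a receptor Smad. Smad2 and Smad3 carry the signal of TGF-beta and activin, Smad1, Smad5 and Smad9 that of BMPs, and Smad4 is the partner both branches share. Secreted traps such as noggin, chordin and follistatin hold ligands away from receptors, and latent TGF-beta binding proteins keep TGF-beta inactive in the matrix. In the developing inner ear BMPs, Bmp4 above all, mark and pattern the sensory patches.

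Both layers gave measurable signal for only some of the family. A gene was tested where a probe was called detected by the scanner software on at least 2 of the 4 arrays, which held for 29 of the 53 genes (54.7%), against 63.0% of all named genes. At an adjusted p under 0.05 by limma, with adjustment over all 16483 tested probes, 14 of the 29 were higher in the SC layer, 11 were higher in the HC layer and 4 were not called. The share called was 86.2%, where 65.4% of the 7768 named genes tested were called (28.2% higher in the SC layer and 37.2% higher in the HC layer). Among the calls, Fstl3 (higher in the SC layer) and Bmpr2 and Ltbp1 (higher in the HC layer) passed the detection filter only through the layer where they were high, so their adjusted p-values are no separate evidence of a difference. A difference between the layers was therefore the common case on these arrays, for these genes and for others. In captured tissue, fewer cells of a type and less RNA per cell cannot be told apart. Changes below are log2 differences, SC layer minus HC layer, with the standard error of the fit and 2 arrays per layer, and intensities are quantile-normalized in arbitrary units.

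Across all arrays the scanner software detected between 39.7% and 39.8% of the gene probes in the SC layer and between 45.6% and 48.8% in the HC layer, and the median raw intensity was 12 to 12.1 in the SC layer and 17.0 to 26.5 in the HC layer. The arrays of a layer correlated at r = 0.994 (SC layer) and 0.993 (HC layer) over 11059 probes detected on all 4. Of 18 hair cell markers tested, 15 were higher in the HC layer and 3 were not called, and 5 of the 18, among them Myo7a, Cdh23 and Espn, were not detected on either SC array. Those 5 passed the detection filter only through the HC layer, so calls among them are no separate evidence of a difference. The summed intensity of the 18 markers was 6304 and 6113 in the SC layer, against 13948 and 14785 in the HC layer. Supporting cell markers were divided, with 7 of 19 higher in the SC layer (Tecta and Vim among them) and 9 higher in the HC layer. Their sum was 24864 and 25739 in the SC layer, against 27836 and 27693 in the HC layer, and came mostly from Gjb2, Gjb6, Slc1a3 and Glul.

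Other tissue moved with the layers as well. Markers of endothelial cells and pericytes were higher in the SC layer in 7 of 9 tested, with a sum over 8 of 1546 and 1568 there, against 497 and 570.5 in the HC layer, where Rgs5 and Egfl7 were not detected. Vwf was called the other way, at 58.5 and 46.8 in the SC layer against 273 and 314 in the HC layer, and Flt1 was not called. Connective tissue markers were higher in the SC layer in 4 of 7, with sums of 2344 and 2413 there, against 1015 and 1025 in the HC layer, and Fbn1 was not detected in the SC layer. Neuronal markers were higher in the SC layer in 4 of 7 (sums of 1027 and 1036 there, against 341 and 381 in the HC layer), while Nefl and Nefm were not detected there. Such sums are carried by the brightest genes, here Gria2 at 575 and 574 in the SC layer against 33.6 and 42.1 in the HC layer. Schwann cell markers summed to 4201 and 4191 in the SC layer and 4199 and 4288 in the HC layer, with 2 of 8 higher in the SC layer and 4 in the HC layer. Immune markers gave 3 of 8 higher in the SC layer and 4 in the HC layer, and summed over 6 to 226 and 206 in the SC layer and 415 and 407 in the HC layer. Many family genes described below are expressed in vessels and connective tissue too, and the part of these cells in the results was not tested.

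The 18 ligand genes were the least often measured role. Only 6 were tested (33.3%), and all 6 were called, 3 in each direction: Bmp6, Gdf11 and Gdf15 were higher in the SC layer, and Bmp7, Tgfb3 and Inha in the HC layer. The median change of the 6 was 0.11 and that of all 7768 named genes was -0.10.

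Bmp6, a BMP known as an iron-sensing signal in liver vessels and as a bone inducer, differed most of the ligands at the probe shown. Its normalized intensity was 130.5 and 118 in the SC layer, against 35.2 and 48.5 in the HC layer, a change of 1.59 ± 0.20 or 3.01-fold (adjusted p = 0.00804). The layers did not overlap, and before any scaling the raw intensities were 103 and 90.7 in the SC layer and 48.8 and 53.7 in the HC layer. Its other probe was not detected on any array. Gdf11, a circulating factor close to myostatin that signals through activin receptors, read 2625 and 2839.9 in the SC layer against 1365 and 1370.3 in the HC layer (0.997 ± 0.081, adjusted p = 0.00332). A second Gdf11 probe moved the same way, with 185 and 203 in the SC layer and 131 and 137 in the HC layer (0.53 ± 0.09, adjusted p = 0.0151). Gdf15, a distant family member known as a stress-induced hormone, was near the detection limit: 52.5 and 40.96 in the SC layer and 24.5 and 29.3 in the HC layer, where only array 2 was called detected. Its change was 0.79 ± 0.18 with an adjusted p of 0.0318, and it fell short of the threshold without HC array 1 (0.70, adjusted p = 0.0558).

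Tgfb3 was the one TGF-beta isoform detected in both layers. It measured 164 and 163 in the SC layer, against 368 and 406 in the HC layer, a change of -1.24 ± 0.09 (adjusted p = 0.00265), and both HC arrays lay above both SC arrays. A second Tgfb3 probe was not detected in the SC layer and entered the test through the HC layer alone. It read 62.7 and 66.5 there, at least 2.35-fold higher than the detection limit allows in the SC layer (adjusted p = 0.00132). Lower limits of this kind set the brighter layer against the lowest detected signal of each dim array, which was 26.6 and 28.3 in the SC layer and 13.9 and 18.5 in the HC layer, or against the probe's own reading where that was higher. Inha, the alpha subunit that turns an activin beta subunit into inhibin, read 76.98 and 64.6 in the SC layer and 158 and 159 in the HC layer (-1.17 ± 0.12, adjusted p = 0.00514). The beta subunits it would pair with were not detected on any array: Inhba read 25.5 and 11.5 in the SC layer and 13.03 and 18.2 in the HC layer, and Inhbb 0.665 and 1.72 in the SC layer and 6.70 and -3.62 in the HC layer. Bmp7, an epithelial BMP of kidney, eye and ear development, was bright in both layers, at 1247 and 1348 in the SC layer and 2023 and 1829 in the HC layer (-0.57 ± 0.10, adjusted p = 0.0160), a call lost with median scaling (-0.49, adjusted p = 0.201).

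Of the other 12 ligands, 11 were not detected on any array (Bmp2, Bmp3, Bmp4, Bmp15, Gdf6, Gdf7, Gdf9, Gdf10, Inhba, Inhbb and Tgfb1). All of these but Tgfb1 rest on 1 probe. Smad3, Gdf11 and Fstl1 each had a probe detected on no array beside a bright one. A probe below detection therefore does not show that a transcript is absent, and this holds for the undetected receptors and Smads below as well. Bmp4, the BMP best known from sensory patches of the developing ear, read 8.40 and 8.36 in the SC layer and 5.58 and 4.34 in the HC layer, and Bmp2 4.32 and 2.77 in the SC layer and 6.20 and -0.475 in the HC layer. For Tgfb1, the isoform of immune cells and wound repair, the brighter of its probes read 3.50 and 10.1 in the SC layer and 4.11 and 6.26 in the HC layer, and the other -3.91 and -1.34 in the SC layer and 10.9 and 5.75 in the HC layer. In raw intensity Bmp4 read 7.31 and 7.23 in the SC layer and 6.89 and 4.42 in the HC layer, where negative control spots had medians of 4.14 to 4.30 in the SC layer and 4.78 to 5.54 in the HC layer. Tgfb2 was called detected on HC array 1 alone, with 3.92 and -0.232 in the SC layer and 18.6 and 18.2 in the HC layer. A signal of that size would lie under the lowest detected signal of both SC arrays, so the call on 1 array is no measured difference.

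**Figure D1:**
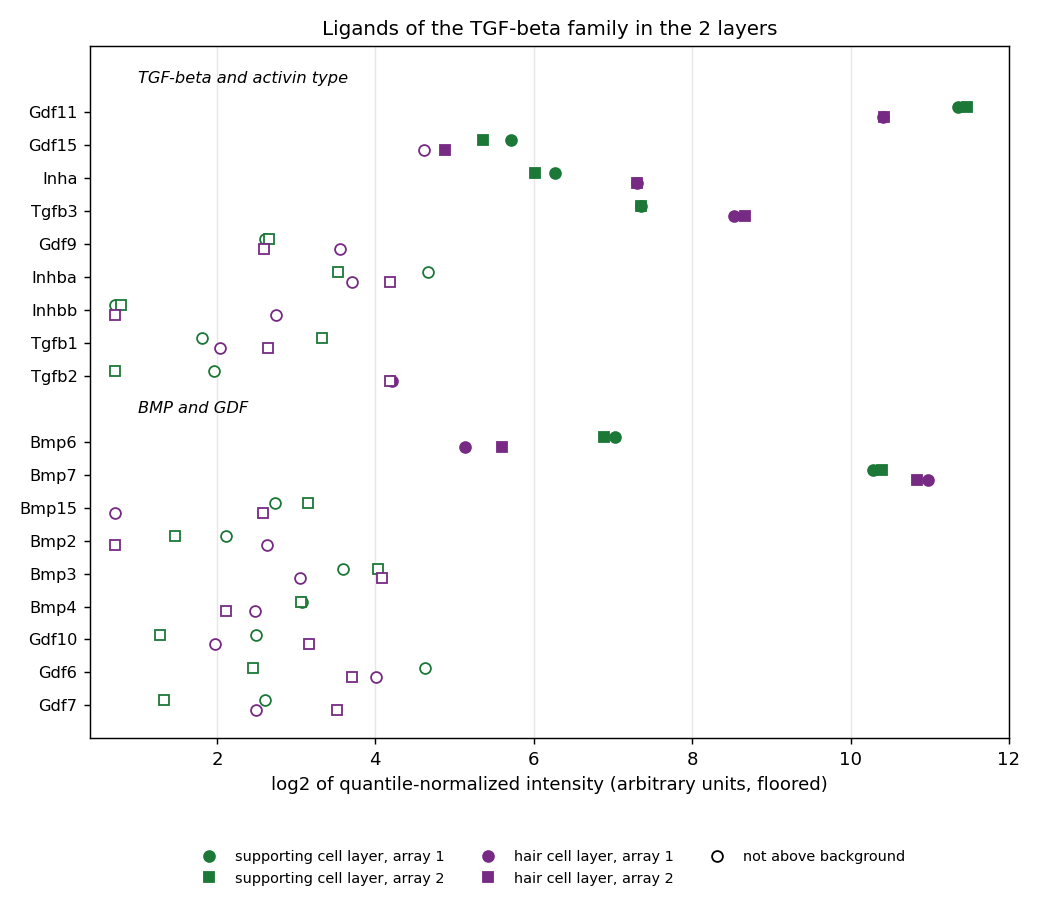
Quantile-normalized intensity (log2 scale, arbitrary units, horizontal axis) of the 18 ligand genes, tested or not, on each array. The SC layer is drawn above the HC layer, with open points where the scanner software did not call the probe detected. Bmp6, Gdf11 and Gdf15 lie higher in the SC layer, and Bmp7, Inha and Tgfb3 in the HC layer, with no overlap between the 2 arrays of one layer and the 2 of the other.

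Receptors were tested in 6 of 10 genes (60.0%). Bmpr1a, Tgfbr3 and Acvr2b were higher in the SC layer, Acvr1 and Bmpr2 in the HC layer, and Tgfbr1 was not called. Their median change was 0.17, set beside 0.11 for the ligands, and each role had 3 genes called higher in the SC layer. The widest receptor difference toward the SC layer, that of Bmpr1a, exceeded the widest ligand one, that of Bmp6.

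Bmpr1a, also called ALK3, is the main type I receptor for Bmp2 and Bmp4. Its intensity was 273 and 300.4 in the SC layer, against 51.4 and 50.5 in the HC layer, 5.62-fold higher (2.49 ± 0.09, adjusted p = 0.00128). The arrays of each layer were close to each other, and the raw intensities, 212 and 223 in the SC layer and 68.8 and 55.9 in the HC layer, kept the order with no scaling. Acvr1 (ALK2), the type I receptor that Bmp6 and Bmp7 use, went the other way, with 503 and 494 in the SC layer and 794 and 916 in the HC layer (-0.78 ± 0.11, adjusted p = 0.00940). With median scaling in place of quantile normalization the Acvr1 call was lost (-0.71, adjusted p = 0.0745). Its other probe was not detected on any array. The type I receptor of TGF-beta, Tgfbr1 (ALK5), read 287 and 293 in the SC layer and 325 and 326 in the HC layer at its brightest probe, which was not called (-0.17 ± 0.07, adjusted p = 0.112). That probe was called higher in the HC layer with another floor and with a variance trend (limma adjusted p = 0.0242 and 0.0339). The mean over the tested Tgfbr1 probes was called too (-0.59, adjusted p = 0.00824). A dimmer Tgfbr1 probe was called higher in the HC layer, with 42.3 and 35.95 in the SC layer and 81.4 and 76.2 in the HC layer (-1.01 ± 0.12, adjusted p = 0.00693), so the probes of this gene gave different calls in the same direction, and its remaining 2 probes were not detected. Acvr1c (ALK7) and Acvrl1 (ALK1, an endothelial receptor) were each detected on HC array 1 alone and not tested.

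Among type II receptors, Bmpr2, the type II receptor specific to BMPs, was detected in the HC layer alone at its tested probe. That probe read 3.43 and -0.92 in the SC layer and 63.4 and 67.9 in the HC layer, at least 2.39-fold higher in the HC layer (adjusted p = 0.00380, from a probe that entered the test through the HC layer alone). A second Bmpr2 probe, detected on 1 SC array and not tested, read 29.7 and 19.3 in the SC layer and 1.52 and 10.1 in the HC layer. The readings of these probes therefore ran in opposite directions, and the call rests on the first. Acvr2b, a type II receptor for activin, Gdf11 and several BMPs, read 70.1 and 58.2 in the SC layer and 42.4 and 47.9 in the HC layer (0.50 ± 0.14, adjusted p = 0.0484). Its call is marginal: without SC array 1 the change was 0.37 (adjusted p = 0.0847) and without HC array 1 it was 0.42 (adjusted p = 0.0997). In raw intensity Acvr2b read 54.98 and 45.2 in the SC layer and 57.6 and 52.95 in the HC layer, so its direction depends on scaling the arrays to each other. Acvr2a and Tgfbr2, the type II receptors of activin and of TGF-beta, were not detected on any array: Acvr2a read 17.5 and 12.6 in the SC layer and 11.4 and 17.3 in the HC layer, and Tgfbr2 4.32 and 1.01 in the SC layer and 1.96 and 12.03 in the HC layer. The co-receptor Tgfbr3 (betaglycan), which presents TGF-beta to its receptors and binds inhibin, had 72.2 and 68.6 in the SC layer and 34.5 and 43.2 in the HC layer (0.86 ± 0.15, adjusted p = 0.0151).

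Of the 7 Smad genes, 4 were tested: Smad4 and Smad5 were higher in the SC layer, Smad3 in the HC layer, and Smad7 was not called. Smad3, the receptor Smad of TGF-beta and activin, had the widest difference of any member detected on all 4 arrays. It measured 165 and 134 in the SC layer, against 1075 and 1118 in the HC layer, 7.36-fold higher in the HC layer (-2.88 ± 0.14, adjusted p = 0.00159). Raw intensities of 129.8 and 103 in the SC layer and 1411 and 1299 in the HC layer show the same gap. The finding rests on 1 probe, since a second Smad3 probe was not detected on any array, at 6.999 and 6.36 in the SC layer and 6.30 and 6.54 in the HC layer.

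The BMP-branch Smads differed little or were dim. Smad5 read 756 and 809 in the SC layer and 548 and 584 in the HC layer (0.47 ± 0.09, adjusted p = 0.0182), while its dimmer probe, at 58.1 and 50.04 in the SC layer and 88.6 and 45.5 in the HC layer, had the opposite sign and was not called (-0.24 ± 0.39, adjusted p = 0.615). Smad4, the shared partner, had 845 and 816 in the SC layer and 676 and 672 in the HC layer (0.30 ± 0.07, adjusted p = 0.0318). Leaving out any 1 array ended the Smad4 call, with changes of 0.27 and 0.32 without SC array 1 or 2 and 0.31 and 0.30 without HC array 1 or 2 (adjusted p = 0.0892, 0.0651, 0.0644 and 0.0696). With no scaling both genes turned the other way, Smad5 at 585 and 595 raw intensity in the SC layer and 723 and 683 in the HC layer, Smad4 at 665 and 601 in the SC layer and 898 and 783 in the HC layer. Smad7, the inhibitory Smad that the pathway itself induces, gave 33.7 and 12.9 in the SC layer, only the first called detected, and 17.1 and 25.2 in the HC layer. The layers overlapped (0.01 ± 0.58, adjusted p = 0.992), and the sign turned to -0.72 without SC array 1 and to -0.24 without HC array 1. Smad1 was detected on HC array 2 alone, with 0.256 and 12.01 in the SC layer and 38.5 on that array, the other HC layer spot being left out. Smad2 and Smad9 were not detected on any array, and Smad2 read 9.98 and 4.63 in the SC layer and 13.1 and 2.43 in the HC layer.

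**Figure D2:**
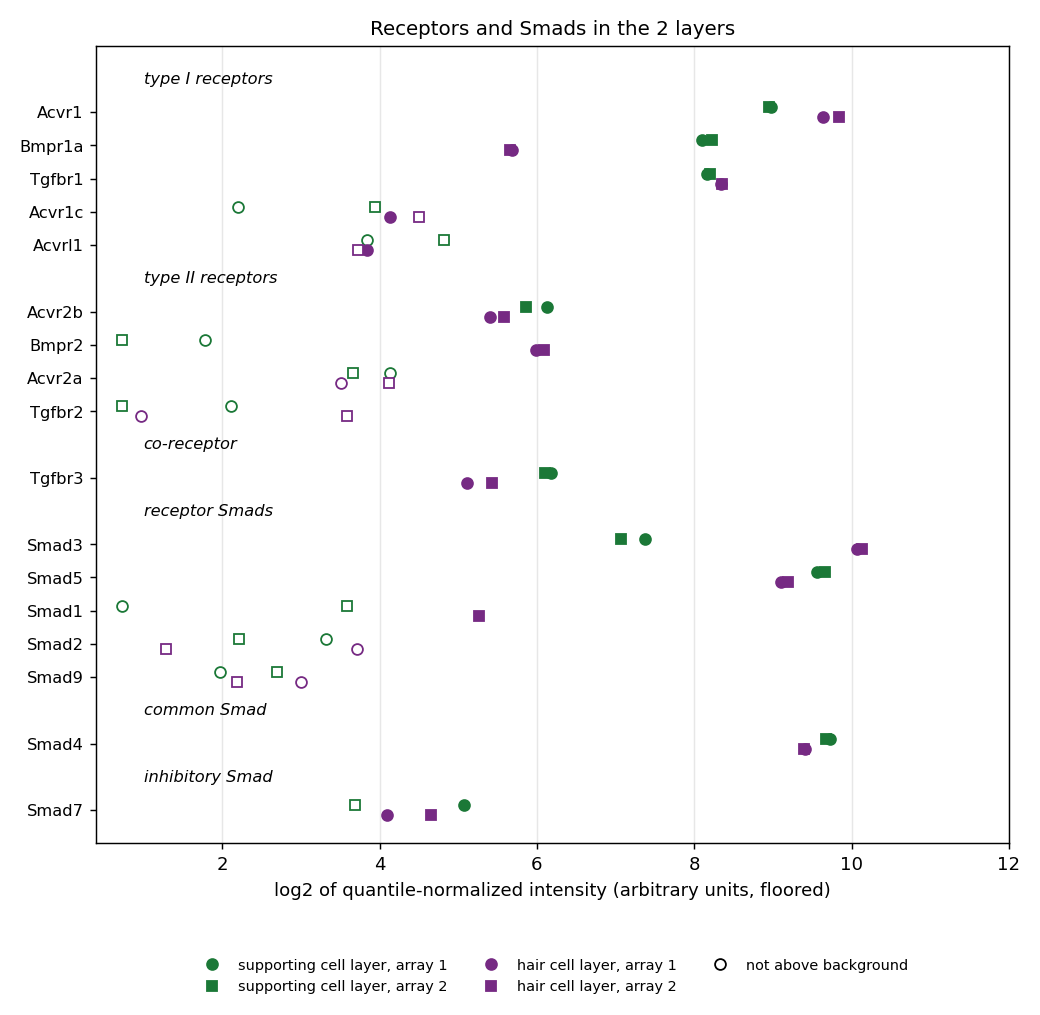
Quantile-normalized intensity (log2 scale, arbitrary units, horizontal axis) of the receptors, the co-receptor Tgfbr3 and the Smads, tested or not, on each array. The SC layer is drawn above the HC layer, with open points where the probe was not called detected. Bmpr1a stands 5.62-fold higher in the SC layer and Smad3 7.36-fold higher in the HC layer, while Tgfbr1, Smad4 and Smad5 lie close together in both layers.

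Promoters of 4 members are printed to set genes higher in one layer beside genes higher in the other, 250 bases upstream of the annotated start (RefSeq, GRCr8). They were picked after values were seen, among the members whose calls held under every processing setting that tested them. Bmpr1a and Fstl3 were higher in the SC layer, and Smad3 and Fstl4 in the HC layer. Fstl3 entered the test through the SC layer alone, so its held call is no separate evidence. Capitals mark CAGAC on either strand, a core to which Smad3 and Smad4 are known to bind, or GGCGCC, the GC-rich core that BMP Smads are known to bind, which reads the same on both strands, and the letters of the 2 do not overlap. Bmpr1a lies at chr16:9786862-9787111 on the minus strand and holds neither, as does Smad3 at chr8:73132325-73132574 on the minus strand. Fstl3 at chr7:10579845-10580094 on the minus strand holds 2 CAGAC matches, and Fstl4 at chr10:37412038-37412287 on the plus strand holds 1.
Bmpr1a: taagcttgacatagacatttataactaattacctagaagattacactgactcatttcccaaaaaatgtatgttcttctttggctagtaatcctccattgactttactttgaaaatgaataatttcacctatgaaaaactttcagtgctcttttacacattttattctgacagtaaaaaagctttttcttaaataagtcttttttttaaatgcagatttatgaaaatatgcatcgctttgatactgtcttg
Fstl3: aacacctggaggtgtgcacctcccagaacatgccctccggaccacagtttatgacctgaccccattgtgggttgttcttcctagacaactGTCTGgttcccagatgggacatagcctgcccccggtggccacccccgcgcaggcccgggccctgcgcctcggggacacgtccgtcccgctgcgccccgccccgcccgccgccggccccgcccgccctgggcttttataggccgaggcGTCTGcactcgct
Smad3: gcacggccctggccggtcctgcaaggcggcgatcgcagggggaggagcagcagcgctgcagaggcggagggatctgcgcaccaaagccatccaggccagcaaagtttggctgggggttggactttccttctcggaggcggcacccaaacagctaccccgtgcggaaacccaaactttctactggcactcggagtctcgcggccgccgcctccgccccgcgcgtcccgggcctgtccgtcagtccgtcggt
Fstl4: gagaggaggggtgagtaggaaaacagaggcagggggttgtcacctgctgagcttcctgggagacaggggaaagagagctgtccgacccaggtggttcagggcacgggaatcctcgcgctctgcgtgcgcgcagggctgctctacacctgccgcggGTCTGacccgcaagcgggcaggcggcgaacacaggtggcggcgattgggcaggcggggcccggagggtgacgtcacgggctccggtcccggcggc
CAGAC occurs in 42.8% of all 27457 RefSeq rat promoters of this length and in 12 of the 46 members with a promoter (26.1%). GGCGCC occurs in 9.24% of all promoters and in 13 of the 46 members (28.3%). A match is a run of letters in this window and no measured site, and an absence says only that the letters are not there.

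Secreted traps bind ligands outside the cell. Of the 5 tested, Chrd, Chrdl1 and Fstl3 were called higher in the SC layer, and Bmper and Grem1 were not called. Fstl3, a follistatin relative that binds activin and myostatin, was detected in the SC layer alone, at 53.4 and 63.96 there against 12.6 and 18.4 in the HC layer, at least 3.65-fold higher (adjusted p = 0.00815, from a probe that entered the test through the SC layer alone). Chrdl1, a chordin-like BMP trap, read 80.4 and 60.9 in the SC layer and 10.7 and 26.7 in the HC layer, with array 1 of the HC layer below detection (2.05 ± 0.54, adjusted p = 0.0421). Its call was lost without SC array 1 (1.84, adjusted p = 0.0923) and without SC array 2 (2.25, adjusted p = 0.0626). The change itself moved to 1.46 without HC array 1 and to 2.65 without HC array 2 (adjusted p = 0.0131 and 0.00403). Chordin itself, Chrd, had 76.8 and 57.6 in the SC layer and 39.1 and 30.3 in the HC layer (0.95 ± 0.23, adjusted p = 0.0328), and the call was lost without HC array 2 (0.77, adjusted p = 0.0563).

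Bmper, an extracellular BMP regulator of vessels, missed the threshold with 184 and 194 in the SC layer and 108 and 143 in the HC layer (0.61 ± 0.18, adjusted p = 0.0513). With a variance trend, or over probes detected on all 4 arrays, Bmper was called by limma (adjusted p = 0.0122 and 0.0125). Another floor and the mean over a gene's probes gave a call as well (adjusted p = 0.0492 for each). It passed without HC array 1 (0.40, adjusted p = 0.0402) and without HC array 2 (0.80, adjusted p = 0.00879), and its raw intensities of 145 and 147 in the SC layer and 142 and 163 in the HC layer overlap. Grem1 (gremlin), a trap of Bmp2, Bmp4 and Bmp7, was not called: it read 23.6 and 26.3 in the SC layer, below detection, and 30.7 and 34.8 in the HC layer (adjusted p = 0.0534). Follistatin (Fst), the classic activin trap, and noggin (Nog), the classic BMP trap, were each detected on SC array 1 alone. Fst read 41.8 and 25.7 in the SC layer and 2.62 and 3.33 in the HC layer. Nog read 56.04 and 29.99 in the SC layer and 11.5 and 3.997 in the HC layer. Neither was tested. Both SC layer readings exceeded both HC layer readings for each, but all except that of SC array 1 were below detection. This order is therefore no measured difference. A second Fst probe was not detected on any array.

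The follistatin-like matrix proteins were both higher in the HC layer. Fstl4, which carries a follistatin-like domain and whose ligand binding is not established, read 293 and 250.1 in the SC layer and 1029.7 and 1178 in the HC layer, 4.07-fold higher in the HC layer (-2.02 ± 0.13, adjusted p = 0.00243). Fstl1, a secreted glycoprotein that modulates BMP signalling, was bright in both, at 1435 and 1397 in the SC layer and 1897 and 2046 in the HC layer (-0.48 ± 0.08, adjusted p = 0.0155), a call lost with median scaling (-0.37, adjusted p = 0.347). A second Fstl1 probe had the same sign and was not called (-0.24 ± 0.09, adjusted p = 0.0866).

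Latent TGF-beta binding proteins, which tether the inactive cytokine to fibrillin microfibrils, were divided. Ltbp4 was higher in the SC layer, at 1771 and 1788 against 1213 and 1237 in the HC layer (0.54 ± 0.07, adjusted p = 0.00815), while its raw intensities ran 1379 and 1306 in the SC layer and 1587 and 1443 in the HC layer. Ltbp3 had 68.3 and 75.5 in the SC layer and 143 on the 1 usable HC array, since the spot on array 1 was left out as contaminated, and the lone array was taken to vary like the others (-0.995 ± 0.129, adjusted p = 0.0202). Ltbp1 was below detection in the SC layer, at 32.6 and 29.1, against 50.3 and 57.3 in the HC layer. Both SC readings lay above the lowest detected signal of their array, so the limit, at least 1.74-fold higher in the HC layer, equals the fitted fold (adjusted p = 0.0112). Without HC array 2 that probe had too few detected arrays, and the remaining Ltbp1 probe gave -0.06 (adjusted p = 0.963). The description text of both Ltbp1 probes in the deposited files opens with another protein's name, so their identity is uncertain. Ltbp2 was not detected on any array.

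**Figure D3:**
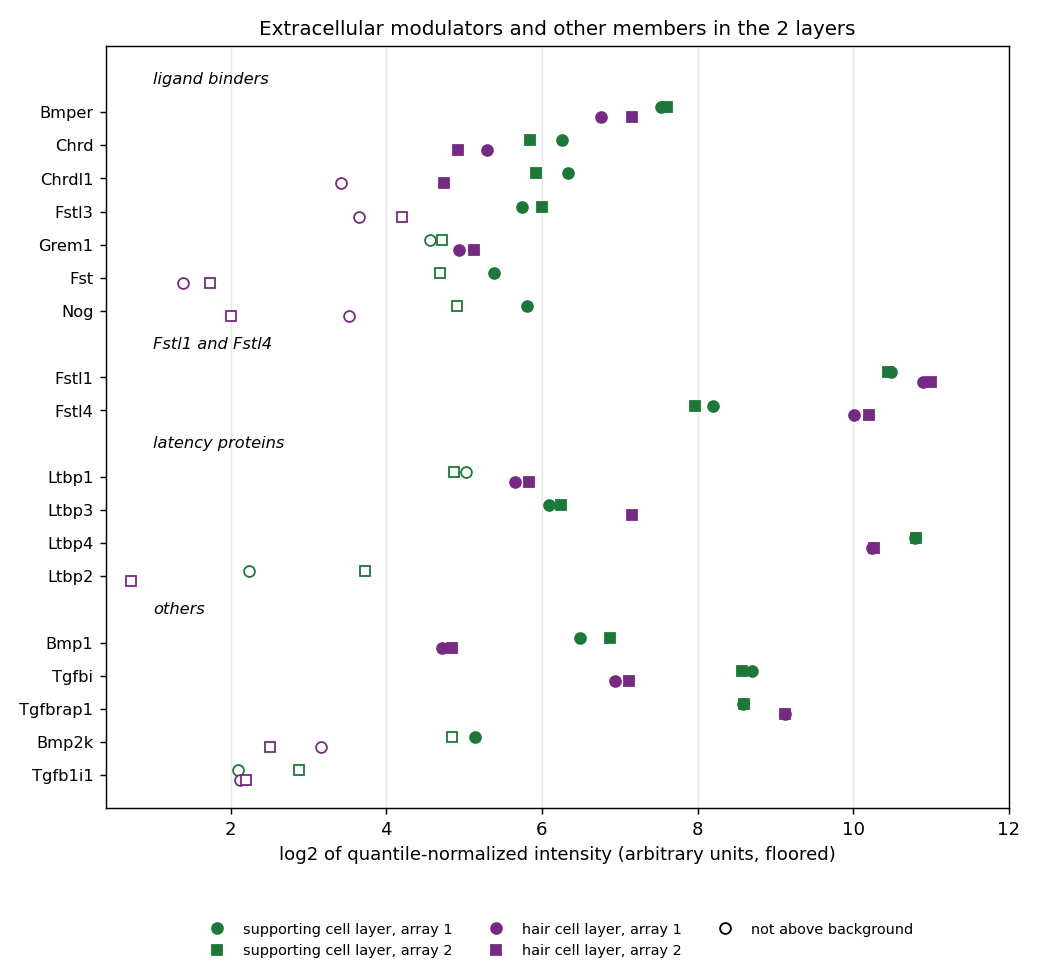
Quantile-normalized intensity (log2 scale, arbitrary units, horizontal axis) of the traps, follistatin-like, latency and remaining members, tested or not, on each array. The SC layer is drawn above the HC layer, with open points where the probe was not called detected. Fstl3, Chrdl1, Chrd, Bmp1 and Tgfbi lie higher in the SC layer, and Fstl4 lies 4.07-fold higher in the HC layer.

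The remaining members share a family name without being ligands, receptors or traps. Bmp1, despite its name, is a procollagen C-proteinase, the enzyme that also cleaves chordin. It read 90.2 and 118 in the SC layer, against 26.3 and 28.7 in the HC layer, 3.75-fold higher (1.91 ± 0.17, adjusted p = 0.00399). The other Bmp1 probes were not detected on any array. Tgfbi, a matrix adhesion protein induced by TGF-beta, had 417 and 381 in the SC layer and 123 and 138 in the HC layer, 3.05-fold higher (1.61 ± 0.11, adjusted p = 0.00244). Its other probes were not detected on any array either. Bmp1 and Tgfbi are also matrix genes. The connective tissue markers given above were divided, with 4 of 7 higher in the SC layer, 1 higher in the HC layer and 2 not called. Their part in these differences was not tested. Tgfbrap1, an adaptor that associates with TGF-beta receptors and takes part in endosomal transport, was higher in the HC layer, at 383 and 386 in the SC layer and 559.7 and 555 in the HC layer (-0.54 ± 0.07, adjusted p = 0.00807), a call lost with median scaling (-0.46, adjusted p = 0.233). Tgfb1i1 was not detected, and Bmp2k was detected on SC array 1 alone.

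Taking all 53 members, 21 had a shown probe detected on all 4 arrays, and of these 11 were higher in the SC layer, 8 in the HC layer and 2 were not called (90.5% called, where 65.7% of 5750 named genes detected on all 4 arrays were, 31.5% higher in the SC layer and 34.1% in the HC layer). A further 4 were detected in 1 layer alone (Fstl3 in the SC layer, Bmpr2, Grem1 and Ltbp1 in the HC layer) and 4 on 3 arrays. Detection on 1 array or none left 24 untested. Of the 28 tested members with 4 values, both SC arrays lay above both HC arrays in 15 and below them in 12, and 1 overlapped, where 40.1% and 49% of 7509 named genes with 4 values did so and 89.1% did one or the other. The median change of the 29 was 0.30, beside -0.10 for all named genes.

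**Figure D4:**
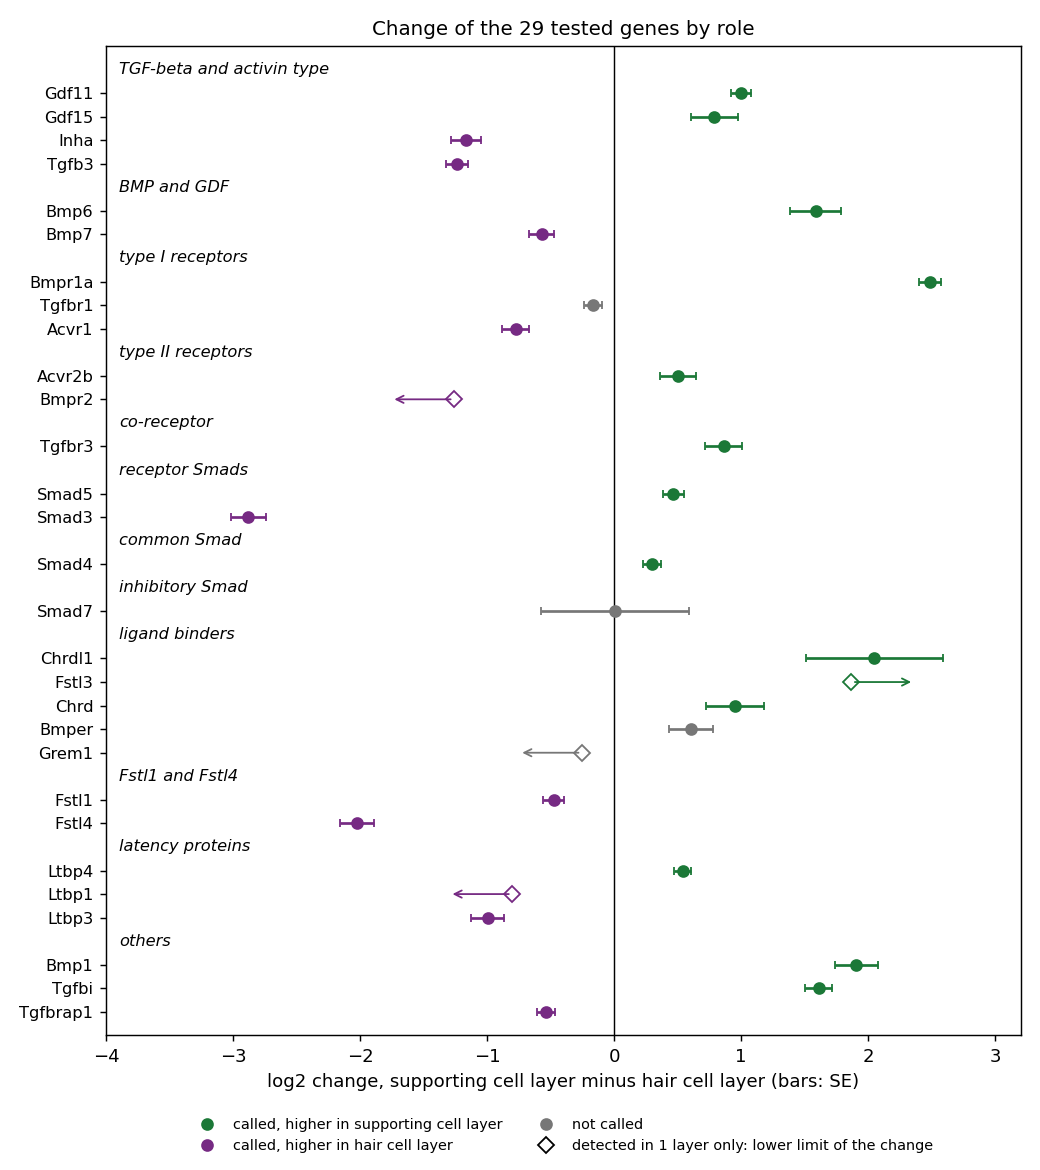
Log2 change (SC layer minus HC layer, with standard errors) of the 29 tested members by role, and genes detected in 1 layer drawn at their lower limit with an arrow. Every role with more than 2 tested genes except the traps has calls on both sides of 0, with Bmpr1a at 2.49 and Smad3 at -2.88.

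Several probes to 1 gene show how far a call depends on the probe. Of the 20 members with more than 1 probe, 7 had 2 tested probes (Fstl1, Gdf11, Ltbp1, Smad4, Smad5, Tgfb3 and Tgfbr1). The sign was the same at both probes in 6, Smad5 being the exception, and the call was the same in 2, Gdf11 and Tgfb3. The dimmer Tgfb3 probe passed the detection filter only through the HC layer, so its call is no separate evidence. Over all 16483 tested probes 67.4% were called, 33.5% higher in the SC layer and 33.9% in the HC layer. In Fstl1, Ltbp1 and Smad4 the brighter probe was called and the dimmer one was not, and in Tgfbr1 the dimmer one was.

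**Figure D5:**
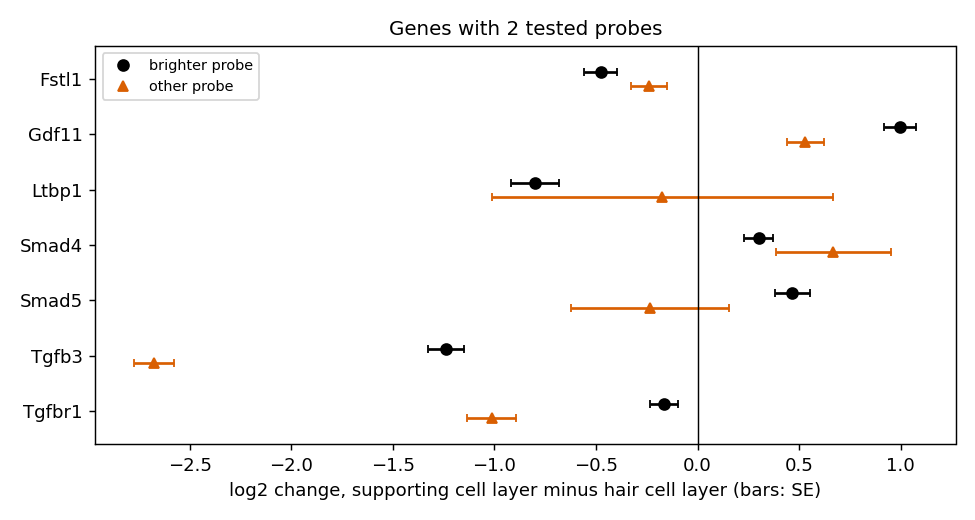
Log2 change (SC layer minus HC layer, with standard errors) at the brighter and the dimmer tested probe of the 7 members that had 2. Gdf11 (0.997 and 0.53) and Tgfb3 (-1.24 and -2.68) were called at both, while Smad5 (0.47 and -0.24) had opposite signs. The -2.68 of Tgfb3 is a fitted value that rests on SC readings below detection.

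Other genes of the pathway, which the symbol rule does not include, were called about as often as genes at large. Of 57 probed, 36 were tested, 11 were higher in the SC layer, 12 in the HC layer and 13 were not called (63.9% called, beside 65.4% of all named genes), with a median change of 0.08. Known transcriptional targets gave 4 higher in the SC layer, 3 higher in the HC layer and 6 not called of 13, and regulators gave 7 higher in the SC layer, 9 higher in the HC layer and 7 not called of 23. The Id genes, which BMP Smads induce in many cells, were all tested. Id1 read 61.4 and 63.0 in the SC layer and 55.7 and 59.9 in the HC layer (0.11 ± 0.08, adjusted p = 0.304). Id3 read 70.2 and 65.8 in the SC layer and 51.5 and 57.8 in the HC layer (0.32 ± 0.10, adjusted p = 0.0631). Both missed the threshold, while the other 2 passed it. Id2 had 45.0 and 37.1 in the SC layer and 18.9 and 23.9 in the HC layer (0.95 ± 0.18, adjusted p = 0.0209), and Id4 had 83.5 on its 1 usable SC array, against 41.2 and 46.8 in the HC layer (0.93 ± 0.14, adjusted p = 0.0276), where the lone SC array was taken to vary like the others.

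The 3 largest fitted changes in each direction among the called genes of that list were these. Amhr2, the type II receptor of anti-Müllerian hormone, read 507 and 463 in the SC layer, against 46.8 and 49.7 in the HC layer (3.33 ± 0.09, adjusted p = 0.00117). Cdkn1a, the cell cycle inhibitor p21 and a TGF-beta target that p53 also drives, read 795 and 770.1 in the SC layer, against 121 and 115 in the HC layer (2.73 ± 0.08, adjusted p = 0.00117). Runx2, the bone transcription factor that partners Smads, read 47.3 and 40.3 in the SC layer and was not detected in the HC layer, at least 2.73-fold higher (adjusted p = 0.00325). On the HC layer's side, Smurf2, a ubiquitin ligase that degrades Smads and receptors, read 17.5 and 24.7 in the SC layer, below detection, against 126 and 124 in the HC layer, at least 4.57-fold higher (adjusted p = 0.00318). Pcsk6, a convertase that cleaves ligand precursors, was not detected in the SC layer and read 51.3 and 61.8 in the HC layer, at least 2.05-fold higher (adjusted p = 0.0246). Fbn1, the fibrillin that anchors latent complexes, was not detected in the SC layer and read 36.9 and 37.7 in the HC layer, at least 1.36-fold higher (adjusted p = 0.0194). Runx2, Smurf2, Pcsk6 and Fbn1 likewise passed the detection filter only through the layer where they were high.

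How the arrays were scaled bears on the direction of the smaller differences. With no scaling the median change of all named genes moved to -0.79, and 13.4% of called genes were higher in the SC layer, where the quantile-normalized values gave 43.1%. Against that shifted median, Acvr2b, Bmper, Ltbp4, Smad4 and Smad5, whose sign turned in raw intensity, still lay 0.64, 0.72, 0.61, 0.38 and 0.53 above it on the log2 scale, and Smad7, whose sign turned too, lay 0.0122 above it. Of the 25 called members, 10 kept the call under every one of 12 other processing settings that tested them: Bmp1, Bmp6, Bmpr1a, Fstl3, Gdf11 and Tgfbi, higher in the SC layer, and Bmpr2, Fstl4, Smad3 and Tgfb3, higher in the HC layer. Bmpr2 and Fstl3, detected in 1 layer alone, were tested under only 9 of the 12 settings. Each passed the detection filter only through the layer where it was high, so its kept call is no separate evidence. The second Bmpr2 probe, with readings in the opposite direction, did not enter the Bmpr2 value under any setting. In raw intensity 9 of these 10 members kept the call too, and Gdf11 did not (0.37, adjusted p = 0.0692). The other 15 lost the call under at least 1 setting. Median scaling ended 9 calls, those of Acvr1, Acvr2b, Bmp7, Fstl1, Ltbp1, Ltbp4, Smad4, Smad5 and Tgfbrap1 (adjusted p between 0.0535 and 0.347). The scanner software's own normalization ended these 9 and those of Gdf15, Inha, Ltbp3 and Tgfbr3 (adjusted p between 0.0646 and 0.588). Under it the fit gave every tested member except Ltbp3 the same standard error, 0.46. Acvr1, for one, went from -0.78 ± 0.11 to -0.71 ± 0.33 with median scaling and -0.68 ± 0.46 with this normalization. The calls lost under both settings thus came with larger standard errors, while the fitted changes moved by less than those errors. With no filter on dim probes, which adjusts over more probes, 14 of the 15 were lost, Inha being the exception (adjusted p between 0.0644 and 0.222). The mean over a gene's probes ended those of Ltbp1, Smad4 and Smad5 (adjusted p = 0.336, 0.0555 and 0.595).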

How the data were processed

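Per the labels' protocols, RNA of each captured layer was extracted with a column kit, and the scanner images were read with CodeLink Expression Analysis 4.0.0.23520, per the file headers. The deposited scanner files give, per spot, a background-corrected raw intensity and a quality flag. Of the columns in the deposited series table, 1 did not line up with its scanner file and was not used; the table served only to pair 35125 rows with the platform annotation.

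Of 33849 gene probes, 16721 had 1 gene there and 192 were named by RefSeq accession. A further 165 matched several genes, 9 had an accession of another gene and 16762 had none, and these stayed unnamed. Spots the scanner software marked as contaminated, irregular or failed were left out, and saturated ones were kept. Raw intensity was quantile-normalized over the 4 arrays, given a floor of 1.65 (0.1 of the normalized median), then log2-transformed. Probes called detected on at least 2 arrays (16483) were tested with limma 3.58.1 in R 4.3.3 (lmFit and eBayes, two-sided, no block, prior SD 0.107 with 1.31 degrees of freedom) and Benjamini-Hochberg adjustment, called at 0.05. The limma fit alone, without the scaling between arrays or the detection filter, was tested on simulated data with 200 probes changed. A gene is shown at its brightest tested probe. Same-numbered arrays did not deviate together (r = -0.0282 over 11059 probes), so no pairing was assumed.

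Per-array values are given for every called member and for well known members not called. Of the other pathway genes, the 3 largest fitted changes among those called in each direction and the Id genes are named. Members and lists were chosen with earlier results of these data known, and the printed promoters and the motifs after values were seen. Alternatives were another scaling, filter, floor, variance trend and summary of probes, a replicate block, each array left out, and, chosen after seeing the data, no scaling.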

Additional observations from a re-analysis of the deposited data

How the results depend on the processing

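Of the 29 tested members, 14 were called higher in the supporting cell (SC) layer and 11 in the hair cell (HC) layer. The first count was 8 with the scanner software's own normalization, 8 with no filter on dim probes and 6 in unscaled raw intensity, and 10 to 13 with each array left out. The second was 6 with median scaling, 4 with the scanner software's normalization and 5 with no filter, and 8 to 11 with each array left out. The ligand median of 0.11 became -0.10 with no filter, -0.57 over probes detected on all 4 arrays and -0.61 in unscaled raw intensity, and ran between 0.04 and 0.15 with each array left out. The receptor median of 0.17 became 0.31 with the scanner software's normalization, -0.0405 with no filter, 0.50 over probes detected on all 4 arrays, -0.0431 with the mean over a gene's probes and -0.51 in unscaled raw intensity, and ran between 0.11 and 0.59 with each array left out (0.42 without HC array 1 and 0.59 without HC array 2). Neither median thus has a settled sign. All 16483 probes gave 11112 calls, against 6871 with the scanner software's normalization, 6654 with no filter and 8635 to 10120 with each array left out. The replicate block, for numbers not known to pair the arrays, gave 10 members higher in the SC layer, 8 in the HC layer and 8702 probes. Signs turned for Smad7 without SC array 1 (-0.72) and without HC array 1 (-0.24), with a range of -0.72 to 0.68 over the arrays left out, and in unscaled raw intensity for Acvr2b (-0.15), Bmper (-0.0616), Ltbp4 (-0.17), Smad4 (-0.41), Smad5 (-0.25) and Smad7 (-0.77). The cause of these shifts was not tested. Another floor and a variance trend kept all 25 calls, and each added Bmper and Tgfbr1. The mean over a gene's probes added Bmper, Grem1 and Tgfbr1. Detection limits were higher in the SC layer, so dim members are bounded less tightly there.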
